A study of Mus musculus with 172 samples.

Results

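Gene expression in the cerebral cortex and in the liver was compared in mice that had been left undisturbed. The comparison used 78 RNA-seq libraries of the 172 in the series, 39 from cortex and 39 from liver, each library being made from a pool of RNA from 1 mouse line. A gene entered the paired comparison where the submitters' tables listed it in both tissues, which held for 12695 of the 16308 genes listed in either, and the 2201 genes listed in cortex only and the 1412 listed in liver only were described apart. The mice were males of 11 to 14 weeks, and tissue was taken at 6 h after light onset, the middle of the light period, when mice mostly sleep. Both tissues of a line came from mice kept under the same control condition (Ctr), with no sleep deprivation. The 39 pools stood for 33 BXD/RwwJ recombinant inbred lines (inbred mosaics of the C57BL/6J and DBA/2J genomes), the parental strains C57BL/6J and DBA/2J with 2 pools each, and the reciprocal F1 crosses BD and DB with 1 pool each. The labels also name lines 96, 97 and 103 as 48a, 65a and 73b. Lines 48, 65 and 73 are in the set too, and all were counted as separate lines. RNA of 3 mice was pooled per line and tissue, so a value belongs to a line rather than to an animal. For BXD79, BXD85 and BXD101 fewer mice were used. Their number is not stated for RNA, so a value of these lines may come from 1 animal. The undisturbed pools of 4 BXD/TyJ lines (8 libraries) were left out.

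The cortex is built from excitatory neurons that use glutamate, inhibitory neurons that use GABA, and the astrocytes, oligodendrocytes, microglia and vessels around them, and it runs on a steady supply of glucose. The liver is made mostly of hepatocytes, which store and release glucose, turn ammonia into urea, make bile acids, ketone bodies and lipoproteins, and secrete most proteins of the blood plasma. Many enzymes of metabolism exist as relatives that arose by gene duplication, such as the glycogen phosphorylases of brain and liver, so the tissues can differ in which relative they use rather than in whether the step is present.

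Values are the reads of a gene scaled to a library of fixed size (CPM), and are given as the lowest, the median and the highest of the 39 pools. A difference is the mean over pools of cortex minus liver of the same line on the scale log2(CPM + 0.5), after each library was centred on its own median over the genes listed in both, so it is relative to the median gene and understates the change of genes near 0 CPM. On the deposited scale the median gene was lower in cortex, so that leaving out the centring shifted the median difference by -0.74 on the log2 scale, and a gene with equal CPM in both tissues has a positive difference here. A gene was called beyond 2-fold where limma's test against a 2-fold threshold gave an adjusted p under 0.05, and the adjusted p-values printed are of that test unless stated otherwise. Fewer cells of a type and less RNA per cell cannot be told apart in whole tissue.

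Cortex libraries held 18995492 to 28998853 reads and liver libraries 5034166 to 8269401. RNA was extracted with different kits and handling in the 2 tissues, so extraction and tissue cannot be told apart. The libraries carried the markers of their labels. Hepatocyte markers, 10 of 12 of which were listed in liver only, summed to 3579 to 6043 CPM in liver. The 2 listed in cortex, Hpx and Cps1, summed to 0.551 to 1.33 CPM there. Pan-neuronal markers, 4 of 6 of which were listed in cortex only, summed to 6833 to 7817 CPM in cortex. The 2 listed in liver summed to 45.0 to 112 CPM there, mostly through Syt1. Genes that were not listed add nothing to a sum. A measure of crowding differed between the tissues. In liver the densest gene, Alb, had a mean of 1.79 reads per base of its exons and no gene exceeded 2.13 in any library, whereas cortex reached 58.0 and had 431 genes with a mean over 2. Reads of a gene grew in proportion to the library total in cortex at every density (median slope of log reads on log total 0.919 to 0.982), but in liver the slope fell from 1.90 in genes of at most 0.01 reads per base to 0.483 between 0.5 and 1 and to 0.233 between 1 and 2. Levels of the 881 densest liver genes, those above 0.5 reads per base, were therefore compressed relative to the rest, and their liver CPM is given without being read as a size. What made the tables differ in this way was not tested.

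**Figure D1:**
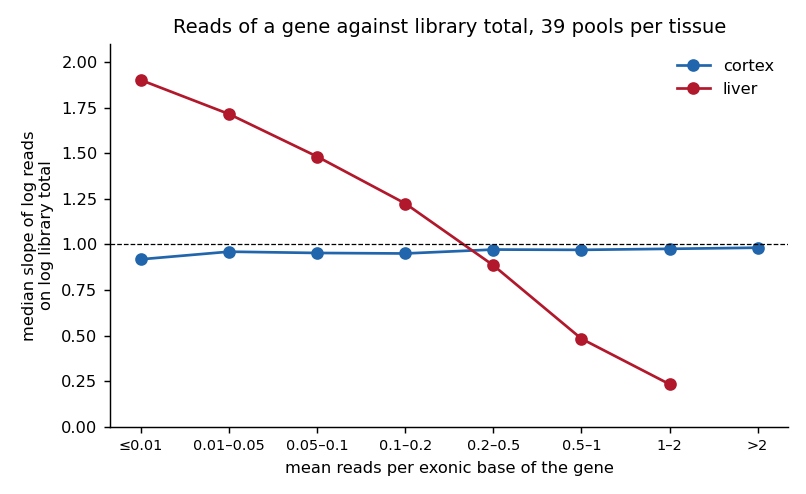
Median slope of the log of a gene's reads on the log of the library total over 39 pools (vertical axis; 1 means that reads grew in proportion) against the mean reads per exonic base of the gene (horizontal axis, classes) for cortex (blue) and liver (red). The cortex line stays between 0.919 and 0.982, while the liver line falls from 1.90 to 0.233 and ends at 2 reads per base.

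The tissues differed in most genes. Of the 12695 genes, 6563 were higher in cortex (51.7%) and 5612 higher in liver (44.2%) at an adjusted p under 0.05 for any difference, and 520 passed in neither direction. Beyond 2-fold, 3764 genes were higher in cortex (29.6%) and 2767 higher in liver (21.8%). These shares are the background of every list count below. The 39 cortex and 39 liver values did not overlap for 4440 genes that were higher in cortex (35.0%) and for 3736 that were higher in liver (29.4%). The median size of the difference was 1.13 on the log2 scale, and 979 genes were over 16-fold higher in cortex against 342 in liver. These counts were made on the centred scale alone, and the levels of the densest liver genes are compressed. The side was stable across lines: 9367 genes lay on the same side in all 39 pools, and of the 6531 genes called beyond 2-fold 121 had any pool on the other side. A cortex pool and a liver pool, of the same line or of different lines, correlated across genes with r between 0.400 and 0.443. In contrast, 2 pools of the same tissue correlated at 0.969 or more. The split between the directions depends on the scaling: cortex took 57.6% of the beyond 2-fold calls after centring, 53.1% after TMM scaling, 46.4% after quantile normalization and 34.4% on the deposited scale.

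**Figure D2:**
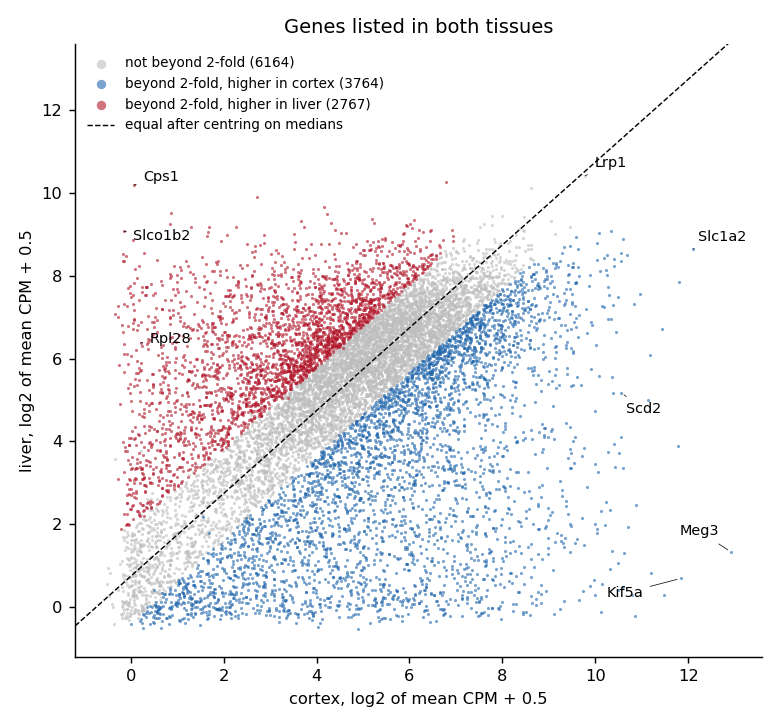
Mean level of each of the 12695 genes in cortex (horizontal axis) and liver (vertical axis), as log2 of mean CPM + 0.5 over 39 pools, coloured by the beyond 2-fold call. The 3764 genes higher in cortex spread far below the dashed line of equal level after centring, and the 2767 higher in liver spread above it up to Cps1 at the top left.

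Among the genes listed in both, those furthest to the cortex side were the noncoding RNA Meg3 and genes for the neuronal cytoskeleton, transport and membrane. Meg3 (chromosome 12 of mm9 from 110779211 to 110809936), a long noncoding RNA of an imprinted locus, was at 4769, 7836 and 9445 CPM in cortex and at 0, 1.20 and 17.8 in liver. No liver pool came near a cortex pool, and the difference was 12.82 (SE 0.17, adjusted p = 1.09e-42). Kif5a (chromosome 10 from 126662755 to 126700136), a motor that carries cargo along axons, was at 2830, 3644 and 4554 CPM in cortex and reached 4.74 in liver, a difference of 12.03. Further ones were Ndrg4 (11.90), Kif1a (11.303), a motor for synaptic vesicle precursors, Map1a (11.18), a protein that binds microtubules, Dclk1 (11.11), Nrgn (10.92), which binds calmodulin at synapses, Dnm1 (10.90), the dynamin of vesicle recovery, and Fbxl16 (10.52). The 10 genes with the largest differences were chosen among those without overlap of the cortex and liver pools. Their liver medians were between 0.307 and 1.295 CPM.

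The genes furthest to the liver side, chosen in the same way, were enzymes and transporters of the hepatocyte. Cps1 (chromosome 1 from 67169600 to 67277833), which takes up ammonia at the first step of the urea cycle, was at 0.127, 0.564 and 0.959 CPM in cortex and at 954, 1150 and 1592 in liver. The lowest liver pool thus lay far above the highest cortex pool, with a difference of -9.41 (SE 0.07, adjusted p = 3.94e-52). Slco1b2 (chromosome 6 from 141578039 to 141635167), a bile acid and drug uptake carrier, was at 0.0899, 0.400 and 0.753 CPM in cortex and at 441, 525 and 721 in liver, a difference of -8.497 (SE 0.06). Dmgdh, a mitochondrial enzyme of choline breakdown, had a difference of -8.12, and F5, coagulation factor V, one of -8.04. They were followed by Cml2 (-8.02, with 18.4% of its transcript stretches found more than once in the genome), Uox (-7.85), the urate oxidase, Car3 (-7.82), a carbonic anhydrase, Hpx (-7.78), the haem carrier hemopexin, Slc38a4 (-7.68), an amino acid carrier, and Slc27a5 (-7.56), which couples bile acids to coenzyme A. All 10 had 0.663 or more reads per base in liver, within the compressed range.

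The genes listed in 1 tissue only included the best known names of each. The submitters had removed genes of low counts from each tissue apart, so a gene missing from a table has no value there rather than a value of 0. A count of 10 reads corresponds to 0.451 CPM at the median depth of cortex and to 1.48 CPM at that of liver. Of the 2201 genes listed in cortex only, 1715 had a mean of at least 1 CPM, 1090 of at least 5 and 297 of at least 100, and 654 lay under the liver level of 10 reads. Of the 1412 listed in liver only, 1072 had a mean of at least 1 CPM, 672 of at least 5 and 277 of at least 100. The most abundant in cortex only were Camk2a, the kinase of synaptic plasticity (3478, 4455 and 4911 CPM), Snap25, the membrane fusion protein of synaptic vesicles (3260, 3668 and 4109 CPM), Slc17a7, the vesicular glutamate transporter (1265, 1454 and 1686 CPM), and the kinesin Kif5c (996, 1381 and 1619 CPM). They were followed by Miat, a long noncoding RNA, Hpcal4, Ddn, Eef1a2, Gria2 and Eno2, with medians from 991 to 1136 CPM. In liver only, the most abundant were Apob, the protein of very low density lipoprotein (1515, 1859 and 2519 CPM), C3, the central complement protein (1006, 1208 and 1663 CPM), and the protease inhibitors Pzp (891, 1075 and 1488 CPM) and Mug1 (713, 880 and 1170 CPM). For Mug1 23.86% of transcript stretches were repeated. Hc, Abcb11, Itih4, Plg, Abcc2 and Pigr followed, with medians from 563 to 826 CPM. These lead a list set by density and length together: Alb, which gives albumin, the main plasma protein, was at 435, 536 and 752 CPM, yet it led liver at 267 CPM per kb of exon.

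Hc, complement component C5, divided the lines, a pattern picked out after its values were seen. Its liver values fell into 17 pools of at most 549.6 CPM and 22 pools of at least 766 CPM with none between. The DBA/2J pools were at 458 and 462 CPM, the C57BL/6J pools at 896 and 968, and the F1 pools at 766 (BD) and 901 (DB).

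Genes of 1 tissue often lay side by side. The next listed gene along the chromosome was also liver only for 27.3% of liver-only genes, against 8.31% of all next genes, and for cortex-only genes the figures were 19.9% and 12.9%. The longest liver-only run was 20 Mup genes on chromosome 4 (59969676 to 61811897), which code for the major urinary proteins. Next came 12 Cyp2c genes on chromosome 19 (39081509 to 40261823), and 11 Ugt2 and Sult1 genes on chromosome 5 (87318792 to 88020636), families that make drugs and hormones soluble. Near-identical copies can split reads in such clusters: from 2.27% to 69.1% of the transcript stretches of the 20 Mup genes were found more than once in the genome, so single values in them are uncertain. Smaller liver-only runs held the albumin genes Alb, Afp and Afm, the fibrinogen genes Fga, Fgb and Fgg, the apolipoprotein genes Apoa1, Apoc3, Apoa4 and Apoa5, and Hoxa2 to Hoxa5. In cortex only, the subunits of GABA-A receptors formed a run on chromosome 5 (Gabrg1, Gabra2, Gabra4 and Gabrb1, around Cox7b2). Genes on chromosome X made up 5.84% of cortex-only genes, 4.24% of those beyond 2-fold higher in cortex, 2.40% of those higher in liver and 3.02% of liver-only genes, against 3.55% of all.

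The promoters of 3 well known genes were picked as examples and stand for no group. Alb and Fabp1, a liver fatty acid binding protein (86.8, 109 and 152 CPM, liver only), are genes of the liver. Syn1, synapsin of the synaptic vesicle (864, 951 and 1049 CPM in cortex, 0, 0.877 and 2.50 in liver), is a gene of the cortex. Shown are the 250 bases before each RefSeq start in GRCm38.p6, with matches in capitals to GTTAAT, a core of HNF1 sites, to TATAAA, the TATA box, and to TGACGTCA, the cAMP response element. Both strands were searched and the matches do not overlap. Over 27025 RefSeq promoters of this length, 6.52% hold GTTAAT, 12.97% TATAAA and 1.62% TGACGTCA.
Alb (chr5:90460620-90460869, plus strand): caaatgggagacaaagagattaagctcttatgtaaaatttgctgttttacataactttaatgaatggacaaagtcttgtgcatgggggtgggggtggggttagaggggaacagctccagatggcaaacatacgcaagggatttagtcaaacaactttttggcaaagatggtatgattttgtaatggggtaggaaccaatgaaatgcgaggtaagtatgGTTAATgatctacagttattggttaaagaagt
Fabp1 (chr6:71199629-71199878, plus strand): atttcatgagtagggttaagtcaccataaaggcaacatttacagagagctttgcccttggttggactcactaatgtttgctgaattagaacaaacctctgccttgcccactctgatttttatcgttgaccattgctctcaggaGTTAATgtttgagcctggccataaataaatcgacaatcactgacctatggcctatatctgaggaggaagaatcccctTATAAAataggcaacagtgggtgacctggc
Syn1 (chrX:20920919-20921168, minus strand): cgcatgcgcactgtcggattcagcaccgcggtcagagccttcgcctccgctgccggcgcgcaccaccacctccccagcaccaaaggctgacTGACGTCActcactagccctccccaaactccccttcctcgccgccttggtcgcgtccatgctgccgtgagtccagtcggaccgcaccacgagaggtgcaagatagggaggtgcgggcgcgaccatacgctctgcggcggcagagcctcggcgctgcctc
GTTAAT began 32 bases before the start in Alb and 107 bases before it in Fabp1, where TATAAA began 30 bases before. TGACGTCA began 159 bases before the start of Syn1. The Alb and Fabp1 windows held 2 CpG dinucleotides each and the Syn1 window 27. A match is a description of the letters, and binding was not measured.

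Relatives of the same family took opposite sides in many families, most of them of metabolism. Over 30 families with 116 members, 88 members were listed in both tissues, beside 11 listed in cortex only and 11 in liver only. Of the 88, 46 were beyond 2-fold higher in cortex, 28 higher in liver and 14 neither, against 29.6% and 21.8% of all genes tested. In 21 of the 30 families, members stood on both sides. Among the 21 were the arginases, whose cortex side rests on 1 member near 0, at a median of 0.911 CPM in cortex and 0.425 in liver. The families were chosen with relatives of known tissue use in mind, so these counts describe them and are not a share of all families.

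Several steps of sugar use were divided in this way. Hk1, the hexokinase of brain, was at 419, 471 and 529 CPM in cortex and at 7.04, 13.18 and 21.0 in liver, a difference of 5.84 (SE 0.05, adjusted p = 8.69e-48). Hk2 was low in both and was not called. Of the glucose carriers, Slc2a3 was on the cortex side (7.47), Slc2a2 was listed in liver only (277, 311 and 422 CPM), and Slc2a1, the carrier of the blood-brain barrier, was at 83.1, 92.9 and 109 CPM in cortex and at 31.1, 42.4 and 57.3 in liver (1.87). The phosphofructokinases Pfkp (5.80) and Pfkm (3.27) were higher in cortex, while Pfkl was not called beyond 2-fold. Aldoc was higher in cortex (3.88), and so was Aldoa (3.83, with 12% of its stretches repeated). Pyruvate kinase was Pkm in cortex (768, 819 and 948 CPM against 28.3, 39.98 and 56.9 in liver, 5.09), and Pklr was listed in liver only (266, 324 and 435 CPM). Ldhb was higher in cortex (5.76) and Ldhd, which uses D-lactate, higher in liver (-3.04), and Ldha was not called. For Pkm 34.9% of stretches were repeated, for Ldhb 22.2%.

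Glycogen enzymes divided in the same manner. Pygb, the brain phosphorylase, was at 178, 205 and 220 CPM in cortex and at 14.9, 21.8 and 33.1 in liver (3.91), and Pygl, the liver phosphorylase, was at 2.03, 3.35 and 4.85 CPM in cortex and at 392, 448 and 590 in liver (-6.18). Gys1 was higher in cortex (2.16) and Gys2 listed in liver only (255.8, 314 and 374 CPM). Among the kinase-phosphatases that set fructose 2,6-bisphosphate, Pfkfb4 was higher in cortex (3.33) and Pfkfb1 in liver (-5.36). Of 6 genes of gluconeogenesis, Pck1, Fbp1 and G6pc were listed in liver only, Slc37a4 (-2.40) and Pcx (-1.92) were higher in liver, and the mitochondrial Pck2 was higher in cortex (17.7, 21.9 and 25.2 CPM against 3.81, 8.61 and 22.1 in liver). Its difference of 1.88 fell to 1.14 on the deposited scale and was no longer called.

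Amino acid and lipid enzymes followed. Gls2, a glutaminase, was at 28.3, 34.5 and 40.6 CPM in cortex and at 352, 387 and 511 in liver (-2.75). Bcat1 was listed in cortex only and Bcat2 was higher in liver (-1.44), and Mat1a, the methionine adenosyltransferase of liver, was listed in liver only while Mat2a was higher in cortex after centring (1.14) but not called beyond 2-fold after TMM scaling (1.04, adjusted p = 0.111). Cpt1c, the brain form of carnitine palmitoyltransferase, was higher in cortex (6.86), and Cpt1a, which admits fatty acids to mitochondria, higher in liver (-3.02). Acsl6 (6.04) stood against Acsl1 (-2.51). Scd2 was at 1324, 1500 and 1690 CPM in cortex and at 20.4, 27.8 and 147 in liver (6.29), whereas Scd1 was at 171, 216 and 301 CPM in cortex and at 550, 686 and 1028 in liver and was not called beyond 2-fold (-0.92, adjusted p = 1). On the deposited scale (-1.65) and after quantile normalization (-2.43) Scd1 was called for liver. Both acetyl-CoA carboxylases, which make malonyl-CoA, were higher in liver, Acacb by more (-5.28) than Acaca (-2.12, 47.7% repeated). Of the elongases, Elovl4 was listed in cortex only, Elovl3 in liver only, and Elovl2 was higher in liver (-3.78).

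**Figure D3:**
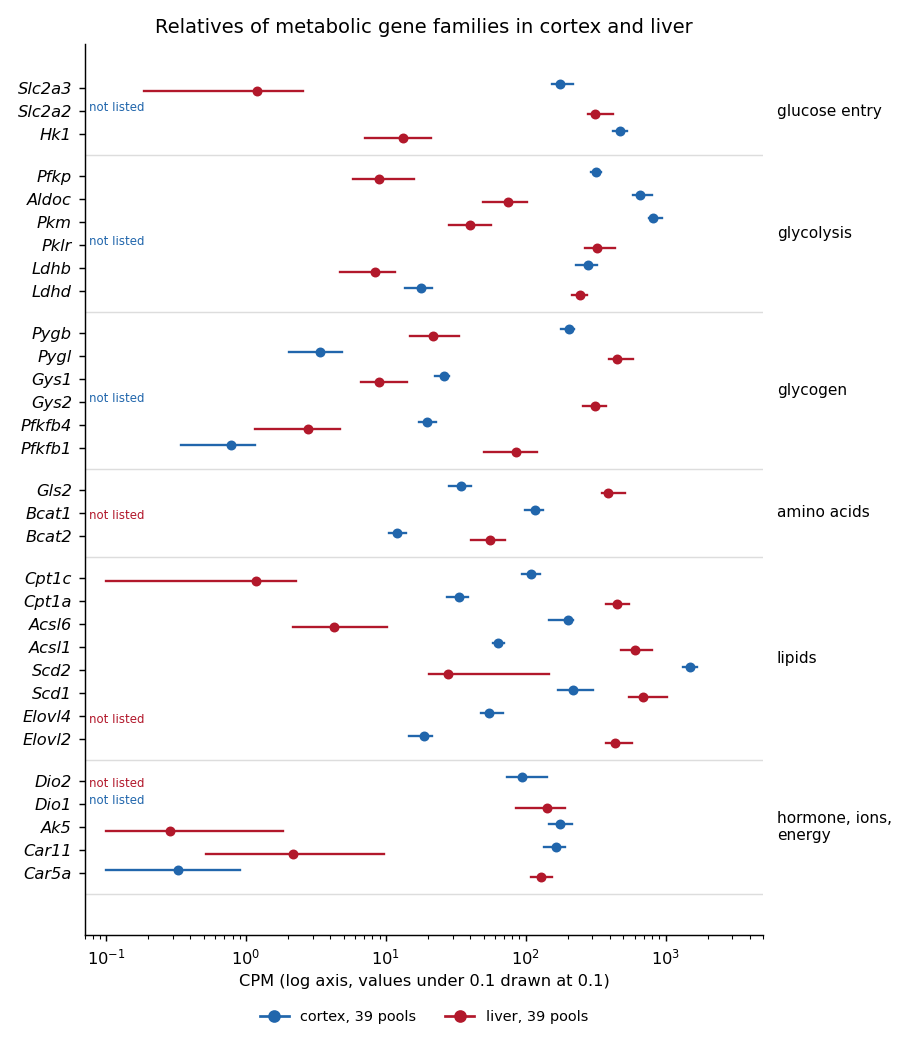
Level of 31 relatives of metabolic gene families in cortex (blue) and liver (red), in CPM on a log axis. Points are medians of 39 pools, lines run from the lowest to the highest pool, and a gene missing from a table is marked as not listed. Pygb and Pygl, or Pfkfb4 and Pfkfb1, stand on opposite sides with no overlap of the tissues.

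Hormone activation and energy buffering showed further pairs. Dio2, which activates thyroid hormone, was listed in cortex only (73.8, 94.1 and 142 CPM) and Dio1 in liver only (84.6, 142 and 189 CPM). Ckb, the brain creatine kinase, was higher in cortex (6.55, 21.68% repeated), as was Ckmt1 (8.07). Ckmt1 stood at a median of 0.566 CPM in liver but at 36.4 in the F1 pool BD. Of 5 adenylate kinases, Ak5 (8.49) and Ak1 (7.10) were higher in cortex and 3 higher in liver, among them Ak4 (-1.45, 19.65% repeated). Of the carbonic anhydrases, Car11 (6.55) and Car2 (3.797) were higher in cortex and Car3 and the mitochondrial Car5a (-6.57) higher in liver. Tubb4a was the tubulin furthest to the cortex side (10.17) and Tubb6 the one higher in liver (-2.74).

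The pathways that define the liver stood on the liver side almost without exception. In the urea cycle, the 5 genes listed in both were all beyond 2-fold higher in liver (median difference -6.10, against 0.15 over all genes tested), and Otc, Arg1 and Nags were listed in liver only. Ass1 was at 1.09, 1.87 and 2.92 CPM in cortex and at 225, 270 and 387 in liver (-6.10, 35.1% repeated), and Asl, which follows it, at 10.4, 12.2 and 15.9 and at 293, 341 and 448 (-4.003). In bile acid synthesis, 5 of 5 were higher in liver and 4 liver only, among them Cyp7a1, the rate-limiting enzyme (157, 287 and 366 CPM). Of 26 complement and coagulation genes, 5 were listed in both and all higher in liver, and 21 were liver only, including Fga (median 374 CPM) and F2, prothrombin (420 CPM). C4b kept the highest cortex level of them, at 9.04, 15.2 and 49.5 CPM against 651, 810 and 997 in liver (-4.85, 22.33% repeated).

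Ketone body genes were divided. Of 7 genes listed in both, 5 were higher in liver, among them Bdh1 (-1.64) and Acat1 (-1.21), and 1 was higher in cortex. Oxct1, the enzyme that lets tissues burn ketone bodies and that hepatocytes hardly use, was at 301, 334 and 356 CPM in cortex and at 11.4, 22.4 and 79.4 in liver (4.57). In cholesterol synthesis 13 of 18 genes were higher in liver, with a median of -1.89, and none was higher in cortex. Fdps (-3.58, 50.4% repeated) and Idi1 (-3.05, 80.9% repeated) had the largest differences of this list. Of 24 peroxisome genes, 15 were higher in liver, among them Cat, catalase (36.1, 43.5 and 59.95 CPM against 388, 471 and 671, -2.71), and 1 was higher in cortex, Abcd2, a carrier of very long chain fatty acids (46.4, 63.6 and 93.7 CPM against 1.84, 20.04 and 111, 2.37). Of 23 genes of protein entry and folding in the endoplasmic reticulum, 7 were higher in liver, none in cortex and 16 neither, with a median of -0.25, against shares of 21.8% and 29.6% over all genes tested. On the deposited scale the liver count rose to 11.

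Synaptic genes stood on the cortex side with as few exceptions. Of 19 genes of vesicle release, 11 were listed in both and all beyond 2-fold higher in cortex (median difference 7.83), and 8 were listed in cortex only. Syp, synaptophysin of the vesicle membrane, was at 1290, 1432 and 1668 CPM in cortex and at 0.460, 1.54 and 3.84 in liver (10.22). Syt1, the calcium sensor of release, kept a clear liver level at 42.9, 65.7 and 109 CPM against 1986, 2323 and 2584 in cortex (5.86), and Vamp2 one of 32.4, 46.1 and 58.6 against 1138, 1325 and 1548 (5.56). Of the glutamate receptor subunits of the AMPA and NMDA types, 8 of 11 were cortex only, Gria3 (7.12) and Gria4 (8.502) were higher in cortex, and Grin3b was listed in liver only at no more than 2.23 CPM. Of 13 GABA-A subunits, 9 were cortex only and 3 higher in cortex, while Gabra6 was listed in neither.

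Regulators of transcription and splicing divided too. Of 17 liver transcription factors, 11 were listed in liver only, Hnf4a among them (399, 476 and 600 CPM), and the other 6 were higher in liver, from Prox1 (-2.92) to Creb3l3 (-7.11). Cebpa was at 5.09, 7.05 and 12.96 CPM in cortex and at 213, 238 and 312 in liver (-4.25). Of 18 cortical factors, 12 were listed in cortex only, including Tbr1 (153, 209 and 237 CPM), 5 were higher in cortex, and Cux1 was not called while its relative Cux2 was at 7.80. Rest, the repressor of neuronal genes outside neurons, was at 1.97, 4.08 and 5.02 CPM in cortex and at 17.8, 30.01 and 42.5 in liver (-2.01, adjusted p = 1.59e-21). Of its corepressors, Rcor2 was listed in cortex only, Hdac1 was higher in liver (-2.96, 52.8% repeated), and the other 4, Hdac2 (0.59) among them, were not called beyond 2-fold. Ptbp1, a splicing repressor of non-neuronal cells, was higher in liver (-1.94, 15.4% repeated) and its relative Ptbp2 in cortex (109, 120 and 127 CPM against 24.1, 35.0 and 48.2, 2.48). Of 25 splicing regulators in all, 9 were higher in cortex and 9 cortex only, such as Rbfox3 (8.25), Celf4 (9.39) and Nova1 (cortex only), whereas Esrp1, Esrp2, A1cf and Mbnl3 were liver only. Among abundant noncoding RNAs, Snhg11 (9.01), Rian (8.26), Peg13 (5.17) and Malat1 (3.30) were higher in cortex, Gas5 and Neat1 were not called, and H19 was liver only at a median of 0.932 CPM.

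The clock genes were sampled at a single time of day, at which the tissues need not be at the same phase. Of 19 listed in both, 7 were beyond 2-fold higher in cortex, 3 higher in liver and 9 neither, against 29.6% and 21.8% of all genes tested in the 2 directions, and Rorb was cortex only. The count for cortex fell to 4 after quantile normalization and to 2 on the deposited scale, on which Npas2 and Arntl stayed above the threshold. Npas2, a partner of ARNTL (BMAL1) in the forebrain, was at 46.5, 60.2 and 67.3 CPM in cortex and at 0.307, 1.48 and 30.9 in liver (5.51, adjusted p = 5.49e-29). Arntl, the clock's activator, was at 42.3, 49.3 and 60.2 CPM in cortex and at 8.14, 16.6 and 112 in liver (2.11). Per1 (1.67), Cry2 (1.27), Tef (1.54), Hlf (1.68) and Bhlhe41 (1.45) were higher in cortex, Rora (-1.198) and Nfil3 (-1.86) higher in liver, and Per2, Per3, Cry1, Nr1d1 and Dbp, the last of which changed sign under both of those scalings, were not called beyond 2-fold. The wide liver ranges came in part from 1 pool. In liver, BXD85 had the lowest value of 10 of the 19 clock genes and the highest of 4, whereas no other pool held more than 3 such places. Its Arntl was at 112 CPM where the next pool, BXD56, had 41.4, its Npas2 at 30.9 against 9.49, its Per3 at 6.53 against 34.2 in the next lowest, and its Dbp at 31.4 against 102. In cortex BXD85 held 5 such places of 20 and another pool, BXD56, held 7. RNA of fewer mice, possibly of 1, was used for this line, and the tissue calls of the clock genes were made with its pool. Without it and the other 2 pools of fewer mice, the same counts of 7 and 3 resulted.

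Housekeeping lists gave a different picture, which ran with repeated sequence. Ribosomal protein genes have many processed pseudogenes, which are near copies of them. Of 77 listed in both, 50 were beyond 2-fold higher in liver, 4 higher in cortex and 23 neither, with a median of -1.82. Over all genes tested, 21.8% were higher in liver and 29.6% higher in cortex. Rpl28 was at 0.240, 0.632 and 1.11 CPM in cortex and at 68.1, 82.2 and 108 in liver (-5.44), and Rps16 at 0.274, 0.607 and 0.911 and at 51.1, 61.0 and 78.8 (-5.09). Rps15, in contrast, was at 109, 128 and 189 CPM in cortex and at 65.4, 78.6 and 100 in liver (1.49), and Rpl8 at 167, 185 and 260 and at 108, 126 and 159 (1.29). On the deposited scale neither was called, and the cortex count of the list was 0. In liver the medians of all but 1 of these genes lay within a narrow band, from 24.1 to 246 CPM, while in cortex they ran from 0.607 to 302 CPM. The share of a gene's transcript stretches of 50 bases that are found more than once in mm9 moved with this. In the 36 genes with over 50% repeated the median difference was -3.10 and 31 were called for liver, in the 24 genes with over 20% and up to 50% it was -1.74 with 13 called, and in the 16 genes with at most 20% it was -0.24 with 6 called. Single genes departed from this: Rpl24, with 0% repeated, was at -4.31, Rpl18, with 16.7%, at -3.90, and Rplp1, with 60%, was called for cortex (1.57). How the reads of repeated genes came to be counted in each tissue was not tested.

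**Figure D4:**
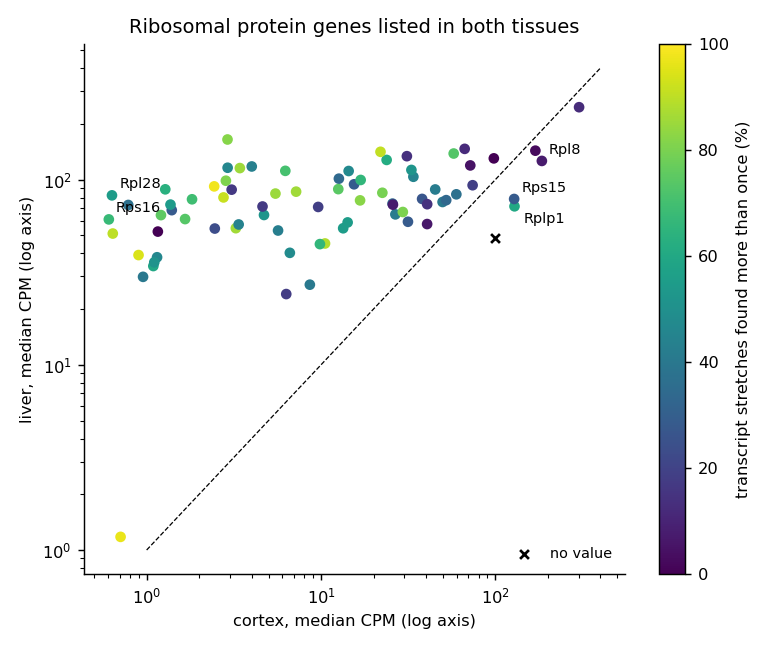
Median CPM of 77 ribosomal protein genes in cortex (horizontal axis) and liver (vertical axis), both on log axes, coloured by the percent of transcript stretches found more than once in the genome; the dashed line marks equal CPM and the cross a gene without a value. Most genes lie in a band near 100 CPM in liver while their cortex levels spread from 0.607 to 302 CPM, the lowest mainly in genes with much repeated sequence.

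The same held beyond ribosomes. Over all genes listed in both, the median difference was 0.18 in the 8105 without a repeated stretch, where 31.2% were beyond 2-fold higher in cortex and 21.5% in liver, and -0.69 in the 251 with over 50% repeated, where 18.7% and 40.6% were. Of 78 respiratory chain and ATP synthase genes, 12 were higher in cortex, such as Atp5b (2.39) and Cox4i1 (2.07), and 6 of the 12 had repeated stretches, as had 26 of the 58 called in neither direction. Of the 8 higher in liver, 7 had repeated stretches, from Ndufc1 (8.33%) to Atp5g2 (100%, -3.14), and the muscle form Cox7a1 had none (-1.21). The list's median was 0.23, and over all genes tested 29.6% were called for cortex and 21.8% for liver. On the deposited scale 4 genes of the list were called for cortex and 16 for liver. Of 37 proteasome subunits, 7 were higher in liver and none in cortex, against 21.8% and 29.6% of all genes tested, with a median of -0.33, and the liver count rose to 11 after quantile normalization and to 22 on the deposited scale. Of the 7, Psma3, Psma5, Psmb3 and Psmd11 had 13.21% to 51.4% of stretches repeated. The subunits of the immunoproteasome, Psmb8 and Psmb9, had no repeated stretches: Psmb8 was at 1.69, 2.57 and 3.90 CPM in cortex and at 65.0, 82.1 and 113 in liver (-4.01), and Psmb9 at 0.443, 1.14 and 1.77 and at 41.7, 56.5 and 80.5 (-4.37). When the 1627 genes with over 5% of stretches repeated and the 439 without a value were left out, an alternative chosen after the data were seen, 3126 of 10629 genes were beyond 2-fold higher in cortex and 2401 higher in liver.

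Cell types other than the main ones were visible in each tissue. Macrophages gave a pair of programmes: the microglial genes Cx3cr1 (39.1, 51.7 and 62.6 CPM in cortex, 0.576, 3.17 and 7.38 in liver, 4.68), P2ry12 (4.07) and Tmem119 (3.72) were higher in cortex, all 5 Kupffer cell genes, such as Clec4f (70.8, 111 and 151 CPM) and Cd5l, were listed in liver only, and C1qa (0.13) and Csf1r (0.54), shared by both kinds of macrophage, were not called beyond 2-fold and were negative on the deposited scale (-0.61 and -0.20). Of 6 astrocyte genes, 5 were higher in cortex, led by Slc1a3 (10.05), a glutamate transporter. Aldh1l1, a folate enzyme that is a marker of astrocytes within the brain, was higher in liver (58.0, 68.8 and 78.3 CPM against 539, 649 and 908, -2.52), and Slc1a2, the main glutamate transporter of astrocytes, was at 285, 409 and 553 CPM in liver against 3190, 4449 and 5618 in cortex (4.20). Of 6 oligodendrocyte genes, 4 were higher in cortex and 2 cortex only, and of 5 brain endothelial genes all were higher in cortex. Of 5 stellate cell genes of the liver, 3 were higher there and 1 was liver only, and of 5 B cell genes, 1 was higher in liver and 4 were liver only. All 6 inhibitory neuron genes, among them Gad1 (360, 422 and 495 CPM) and Sst, were cortex only. Some cortex pools stood apart in single markers. Ttr, of the choroid plexus and of hepatocytes, was at 1.78, 15.5 and 219 CPM in cortex. Gh, a pituitary marker, was at 58.3 CPM in BXD100 and at most 3.56 in the other pools. Of the 5 pituitary markers, 3 were listed in neither tissue. BXD56 had the highest Gfap, of astrocytes (626 CPM against a median of 98.4), and the highest Ppp1r1b, of striatal neurons (216 CPM against 82.0).

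The share held by the most abundant genes stands beside the ceiling of 2.13 reads per exonic base in liver, so the shares are a description with no test. The 10 highest genes of a library held 3.499%, 3.93% and 4.45% of its CPM in cortex and 1.03%, 1.18% and 1.38% in liver. The 100 highest held 14.5%, 15.2% and 15.8% in cortex and 5.50%, 6.06% and 7.01% in liver. By CPM, the cortex leaders included Meg3, Slc1a2, Camk2a, Kif5a, Snap25, Snhg11, Camk2n1 and Map1a, and those of liver Apob, Lrp1, C3, Fn1, Cps1, Fasn, Pzp, Col18a1, Mug1 and C4b. Lrp1, a receptor for lipoprotein remnants, was high in both tissues (567, 891 and 1078 CPM in cortex against 1046, 1363 and 1605 in liver) and not called beyond 2-fold (0.10), but it was negative on the deposited scale (-0.64) and called for liver after quantile normalization (-2.29, adjusted p = 1.849e-30). Fasn, the fatty acid synthase, was at 313, 387 and 434 CPM in cortex and at 719.7, 1137 and 1589 in liver. It was not called beyond 2-fold after centring (-0.74), though in CPM every liver pool lay above every cortex pool. Leaving out the centring shifts this difference by a further -0.74 to the liver side. Per kb of exon, cortex was led by 2900097C17Rik (1964 CPM per kb, all of its stretches repeated), Fth1, ferritin heavy chain (1309), and Nrgn (1195), and liver by Alb (267), Gc, the vitamin D binding protein (255), H1f0 (247) and C3 (240).

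The tissue difference was nearly the same in every line for most genes. Among the 9279 genes with a mean of at least 5 CPM in both tissues, the SD of the difference over the 39 pools had a median of 0.19 and a 99th percentile of 0.86, and it exceeded 1 in 70 genes. The genes with the widest SD were Slc39a2, Moxd1, Sema3e, Disp2, Amn, Ntrk2, Fggy, Tiam2, Stab2 and Fut10. They were chosen for that spread, so their values are a description with no test.

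In Slc39a2 and Fut10 the tissues changed places between the parental strains. Slc39a2 (chromosome 14 from 52512564 to 52516420), a zinc transporter, was at 11.2 and 12.2 CPM in cortex and at 0.589 and 1.07 in liver of the C57BL/6J pools, and at 3.32 and 3.003 in cortex and 15.96 and 19.6 in liver of the DBA/2J pools. The F1 pools were at 7.11 (BD) and 7.46 (DB) in cortex and at 12.96 and 9.08 in liver. Over all pools the difference ran from -2.77 to 4.76, with 28 pools at or below 0.41, 11 at or above 3.46 and none between, and its mean of 0.01 changed sign under most other scalings and pool sets. Fut10 (chromosome 8 from 32297803 to 32372210), a fucosyltransferase, was at 8.79 and 9.03 CPM in cortex and at 2.50 and 2.45 in liver of the C57BL/6J pools, and at 3.09 and 3.62 in cortex and 18.9 and 18.1 in liver of the DBA/2J pools. The difference was positive in 23 pools and negative in 16.

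In 6 of the others the spread lay mostly in liver. Ntrk2 (chromosome 13 from 58907957 to 59235331), the receptor of brain-derived neurotrophic factor, was at 589, 776 and 861 CPM in cortex and at 2.65, 49.6 and 368 in liver. The liver of the DBA/2J pools was at 368 and 314 CPM and that of the C57BL/6J pools at 7.65 and 6.88. Disp2 (chromosome 2 from 118605455 to 118637029) was at 408, 490 and 583 CPM in cortex, and in liver at 9.12 and 8.26 in the C57BL/6J pools and at 0.307 and 0.284 in the DBA/2J pools. Its difference split the pools into 24 at or below 6.65 and 15 at or above 9.62. Sema3e (chromosome 5 from 14025276 to 14256689), a guidance signal, was in liver at 0.589 and 0.306 CPM in the C57BL/6J pools and at 34.4 and 16.02 in the DBA/2J pools, beside 27.3 to 49.2 CPM in cortex. Amn (chromosome 12 from 112509322 to 112514637), which helps take up vitamin B12, was in liver at 0.294 and 1.38 CPM in the C57BL/6J pools and at 7.83 and 8.08 in the DBA/2J pools.

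In 9 of the 10 genes some pools lay above every parental pool, and in 9 some lay below: for Amn 12 and 16 pools, for Disp2 11 and 21, for Fggy 17 and 1, and for Stab2 none and 22. Part of this rested on values near 0 and on 2 pools per parental strain, and it was not tested. The 11 Disp2 pools had at most 0.247 CPM in liver, against 0.284 and 0.307 in the DBA/2J pools. The 12 Amn pools had at most 0.566 CPM in liver, against 0.294 and 1.38 in the C57BL/6J pools. The highest Fggy difference was -2.96, against -3.55 and -3.63 in the C57BL/6J pools. Moxd1 (chromosome 10 from 23943323 to 24022596) was at 62.4 to 135 CPM in liver of the 4 parental pools, but in 7 BXD lines its liver level was at most 7.495 CPM and lay on the cortex side, although the cortex stayed at 4.01 to 8.99 CPM in all pools. In 11 pools the difference was above, and in 11 below, that of every parental pool. Tiam2 (chromosome 17 from 3326573 to 3519397) was at 62.8, 69.9 and 83.5 CPM in cortex and at 1.75, 66.0 and 122 in liver, with the C57BL/6J pools at 77.3 and 73.1 CPM and the DBA/2J pools at 19.3 and 19.8 in liver. In 16 pools the difference was above, and in 14 below, that of every parental pool.

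In Fggy and Stab2 the spread lay mostly in cortex. Fggy (chromosome 4 from 95224198 to 95593630), a carbohydrate kinase, was at 181, 209 and 249 CPM in liver, and in cortex at 10.8 and 9.31 CPM in the C57BL/6J pools, at 0.0461 and 0 in the DBA/2J pools, and between them in the F1 pools (1.84 in BD and 2.78 in DB). Stab2 (chromosome 10 from 86303943 to 86470770), a scavenger receptor of liver sinusoidal endothelium, was at 0.144, 0.520 and 96.4 CPM in cortex and at 27.97, 121 and 247 in liver. The DBA/2J pools had 96.4 and 70.0 CPM in cortex, and the C57BL/6J pools 0.4998 and 0.756. Summed markers of that endothelium, Stab2 among them, had a median of 4.37 CPM in cortex and a highest value of 101.

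**Figure D5:**
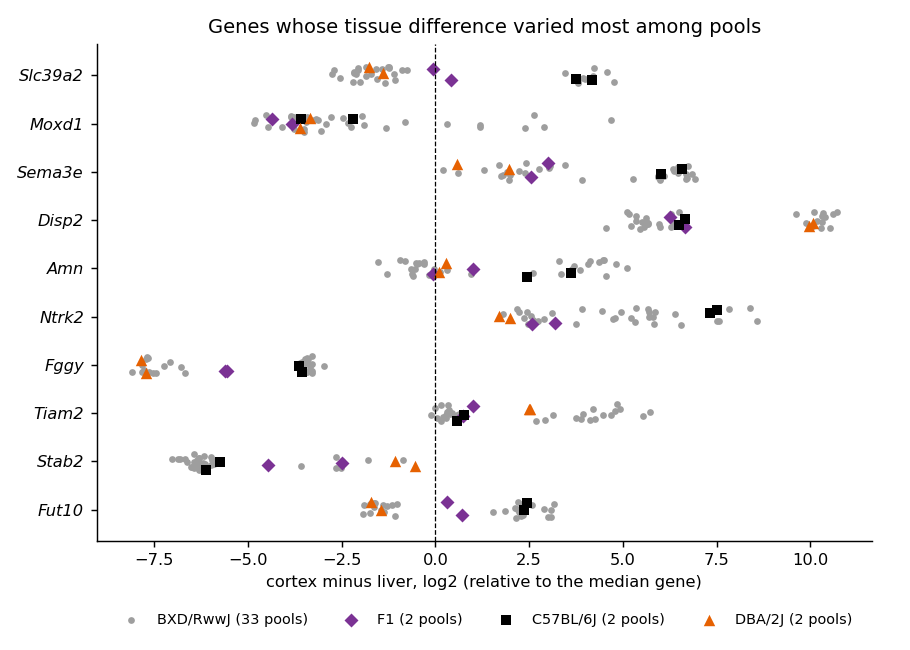
Cortex minus liver difference (log2, relative to the median gene) of the 10 genes whose difference varied most, 1 point per pool: 33 BXD/RwwJ lines (grey), F1 (purple), C57BL/6J (black) and DBA/2J (orange). Slc39a2 and Fut10 have the parental strains on opposite sides of 0, and in Disp2 24 pools lie at or below 6.65 and 15 at or above 9.62.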

How the data were processed

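RNA of cortex and liver was sequenced by the authors as stranded, poly(A)-selected single-end libraries, with cortex RNA extracted on a robot and liver RNA by hand with another kit. Per the labels and the study's methods, reads were mapped to mm9 with STAR, counted per RefSeq gene with HTSeq on the reverse strand, and genes with a mean under 10 reads were removed in each tissue. The deposited values are log2 CPM made by the authors with edgeR after TMM scaling, 1 table per tissue and condition. No comparison columns were used.

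The level of a gene without reads in each table was subtracted on the CPM scale. With it, 100% of values came out as whole reads (within 0.02 of a read), which gave the library totals. Values were taken as log2(CPM + 0.5) and centred per library on the median over the genes listed in both tissues. Cortex minus liver of the same pool name was fitted with limma 3.58.1 (R 4.3.3; eBayes with a variance trend, and treat with a 2-fold threshold), Benjamini-Hochberg adjusted over 12695 genes. Pool names mark the same line in both tissues, and the deviations of same-named pools correlated with a median r of 0.16 (range 0.005 to 0.21, other names -0.005), so the pools were paired. The p-values measure the spread between pools of lines and not between mice. They take all pools as independent, also the 2 of each parental strain and those of 48 and 48a, 65 and 65a, and 73 and 73b. Fits were tested on simulated data.

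Genes were named by rule: the 10 largest differences in each direction without overlap of the pools, the 10 most abundant by CPM and per kb, the 10 most abundant listed in 1 tissue only, the 10 with the widest SD over pools at a mean of at least 5 CPM, and members of lists of pathways, families and cell type markers. Members, lists and tests were chosen with earlier results of these data known. Some members of the lists are not reported here. Exonic lengths were had for 98.0% of cortex and 98.3% of liver genes. Repeated sequence was measured as the percent of 50-base stretches, taken every 10 bases along a transcript, that occur again in the genome. RefSeq promoters matched 79.8% of genes listed in both, 70.8% of cortex-only and 74.2% of liver-only genes, under the 80% needed, so shares by group are void and not given. Alternatives covered scaling, pseudocount, filters, pairing, weights and the set of pools.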

Additional observations from a re-analysis of the deposited data

Results flagged for a closer look

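Among the genes named above for the widest SD over pools, 2 had opposite tissue differences in all C57BL/6J pools and all DBA/2J pools. This is not a count over all genes, and none is given. For Slc39a2 the cortex minus liver difference was 5.55 higher on the log2 scale in the mean of the 2 C57BL/6J pools than in that of the 2 DBA/2J pools (4.17 and 3.76 against -1.38 and -1.78). For Fut10 the strains differed by 3.98. The difference between the strains was not tested for either gene, since 2 pools a strain cannot reach a small exact p-value.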

How the results depend on the processing

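On the deposited scale without centring 4786 genes were beyond 2-fold higher in liver and 2513 in cortex. The split of the calls moved with scaling, to 3480 cortex and 3079 liver after TMM over all libraries, 3026 and 3496 after quantile normalization, and 3536 and 3171 with voom weights. Without the pairing of pools (no replicate block) 3757 and 2756 genes were called beyond 2-fold, and the block changed no call of a gene named in the text. A mean of at least 5 CPM left 1090 cortex-only and 672 liver-only genes. With at least 20 CPM in both tissues, 19 genes of 5782 had an SD over pools above 1. Of 156 genes named and listed in both, 97 had a value under every alternative, and 77 of those kept their direction and their side of the threshold under all of them. The filter on mean CPM left 129 of the 156 and that on repeated stretches 120. Slc39a2 changed sign most often, to -0.73 on the deposited scale, -0.16 with TMM, -0.57 with quantile normalization, -0.0531 with a pseudocount of 2 CPM, -1.002 with voom, -0.15 in the BXD/RwwJ lines alone, -0.059 with parental pools averaged, -0.20 without the pools of fewer mice, -0.0114 with the BXD/TyJ pools and -0.0939 without genes of repeated stretches. On the deposited scale these also turned negative: C1qa (-0.61), Csf1r (-0.20), Cux1 (-0.45), Dbp (-0.60), Fut10 (-0.0306), Gas5 (-0.67), H1f0 (-0.40), Hdac2 (-0.15), Ldha (-0.49), Lrp1 (-0.64). After quantile normalization Cux1 (-0.0032), Dbp (-0.16), Gas5 (-0.11), Ldha (-0.45) and Lrp1 (-2.29, a call beyond 2-fold for liver) did. Gas5 did so with TMM (-0.0391) and voom (-0.0224), and Lrp1 with both (-0.0001). Gm129 was at 0.0155 in the BXD/RwwJ lines alone. Liver libraries held fewer reads than any cortex library, so low liver levels are the less precise.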

Other observations

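The liver pool of BXD85 stood apart in clock genes outside those named above. Cry1 was at 72.1 CPM and Nfil3 at 79.1 CPM, each the highest of the 39 liver pools, and Gm129, a repressor of the clock also called Chrono, was the lowest at 0.973 CPM against a median of 32.7 CPM. Per2 was at 18.6 CPM against a median of 79.2 CPM, and Bhlhe41 at 3.34 CPM. The labels give the same time of day for this pool as for the others.

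Listed genes reached below the stated minimum of 10 reads in these pools: 128 of 14896 cortex genes and 1529 of 14107 liver genes had a mean under 10 reads over the 39 undisturbed pools. Which libraries the stated minimum was taken over was not tested, and the lowest means here were 4.49 reads in cortex and 0.692 in liver. Of 7 erythroid markers, the 6 globin genes were listed in neither tissue. The other, Alas2, which makes haem in red cell precursors, was at 2.18 CPM in cortex and at 244 CPM in liver in the median (-5.86).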
